A study of Mus musculus with 76 samples.

Results

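Medullary thymic epithelial cells (mTEC) were compared with cortical thymic epithelial cells (cTEC), both sorted from the thymus of mice at d120. The 12 libraries of this comparison are all those whose titles name mTEC or cTEC and day 120, of 76 libraries in the series. They form 4 groups of 3, which are mTEC of SOD1-G93A mice, mTEC of WT mice, cTEC of SOD1-G93A mice and cTEC of WT mice. SOD1-G93A mice, which model the motor neuron disease amyotrophic lateral sclerosis, carry a mutant human SOD1 transgene under its own promoter, so every sorted cell type of these mice carries it. The labels give SOD1-G93A as the strain of the WT mice too, and they give no sex, no sorting gate and no statement that libraries of 1 group came from separate animals. Genotype was a covariate, so that each difference is mTEC minus cTEC over both genotypes. The p-values therefore measure the spread between these libraries. Each mTEC library shares a library number with 1 cTEC library, and the labels do not say whether equal numbers mark the same animal. The main fit leaves them unpaired, and a fit with that number as a replicate block served as an alternative. The thymus was digested, the cells were sorted and RNA was copied with a low input kit.

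Thymocytes meet these epithelia in order. In the cortex, cTEC draw in T cell progenitors, drive their commitment through Notch ligands and cytokines, and display peptides made by a proteasome subunit and proteases particular to them, on which thymocytes are positively selected. In the medulla, mTEC express genes that are otherwise restricted to single peripheral tissues, a process driven in large part by the autoimmune regulator Aire and by Fezf2, and present the products so that self-reactive thymocytes are deleted or turned into regulatory T cells. Signals through RANK, CD40 and the lymphotoxin receptor maintain the medulla, and some mTEC take on the gene programs of peripheral cell types and are known as mimetic cells.

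Library totals ran from 1605090 to 36919936 counts in mTEC and from 1269529 to 3083181 counts in cTEC. Between 14369 and 27663 genes had a count in mTEC, and between 7627 and 15679 in cTEC. Thinned to 1269529 counts each, mTEC libraries still held 12990 to 20215 genes (median 18089.5) and cTEC libraries 7156 to 14598 (median 14127.5; exact two-sided permutation test over 12 libraries, p = 0.0173, 0.0289 adjusted over 5 library measures, smallest possible 0.00216). The library cTEC SOD1 3 stood apart, with 7627 genes, a correlation of at most 0.508 with the other cTEC libraries on log2 CPM across genes, and many cTEC genes at 0. It stays in the values below, and counts that move with it by more than 1.5 times are given without it too. Among mTEC libraries, mTEC WT 3 had the fewest genes (14369, and 12990 when thinned). The correlation of mTEC WT 3 had a median of 0.631 with the other mTEC libraries and reached 0.609 with a cTEC library. Counts assigned to Sod1 were 327, 331 and 174 CPM in mTEC of SOD1-G93A mice, 49.8, 35.4 and 13.1 CPM in mTEC of WT mice, 444, 323 and 634 CPM in cTEC of SOD1-G93A mice and 90.1, 94.6 and 46.6 CPM in cTEC of WT mice, which separates the genotypes as labelled in both populations. CPM are counts per 1000000 counts of the genes tested, scaled between libraries by TMM.

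Aire and Psmb11, marker genes of mTEC and cTEC, separated the 2 populations. Aire (chr10:78030022-78043610, mm10) stood at 651, 818 and 1856 CPM in mTEC, against 0, 0 and 18.1 CPM in cTEC, given here and below as the lowest, the median and the highest of 6 libraries. Every mTEC library lay above every cTEC library, with a log2 fold change of 8.25 ± 1.13 SE, adjusted p = 0.000408. Psmb11, which encodes the beta5t subunit of the thymoproteasome (chr14:54621433-54629556), stood at 0, 1.24 and 6.72 CPM in mTEC, against 10.7, 202 and 308 CPM in cTEC. The groups did not overlap here either (log2 fold change -6.83 ± 1.12 SE, adjusted p = 0.00148). Values written with ± and SE here and below are log2 fold changes of mTEC over cTEC with their standard errors. Epcam, which encodes a surface adhesion protein of epithelia, was at 1169, 1589 and 1775 CPM in mTEC and 1128, 1296 and 1628 CPM in cTEC, and these ranges overlapped.

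**Figure D1:**
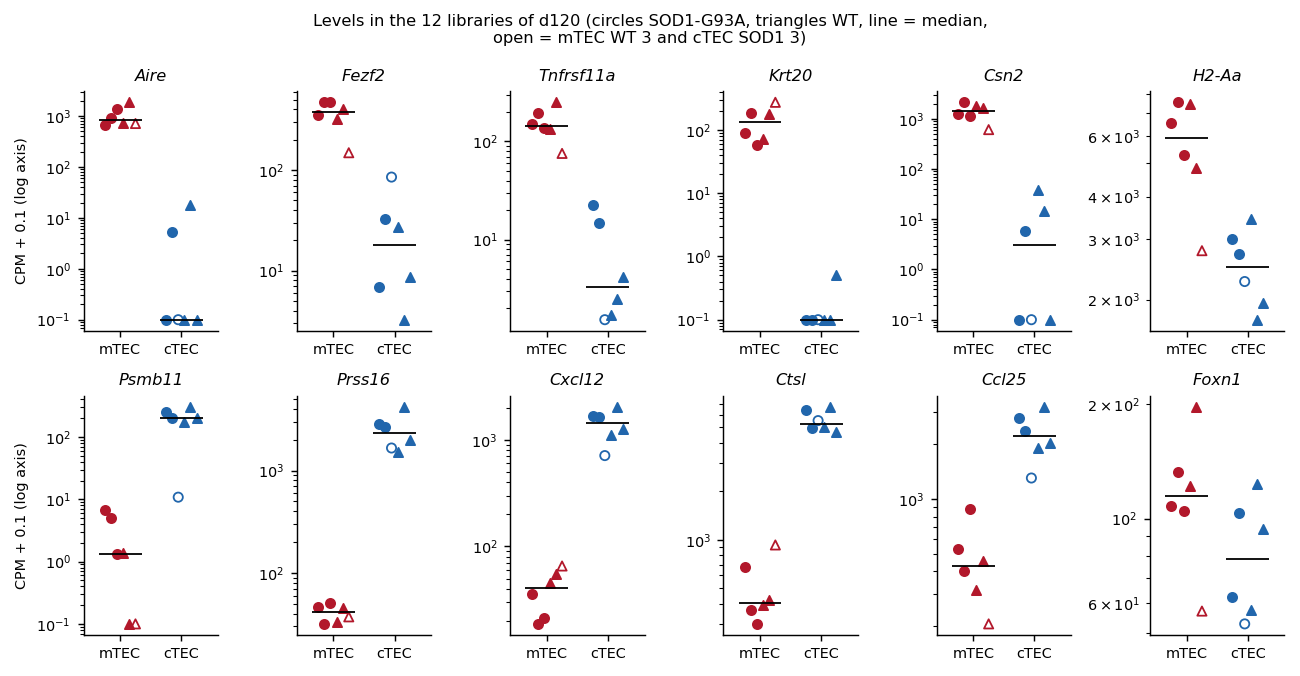
Levels of 12 genes in each of the 12 libraries of d120, in CPM plus 0.1 on a log axis, mTEC left of cTEC, with SOD1-G93A as circles, WT as triangles, the median as a line and mTEC WT 3 and cTEC SOD1 3 as open symbols. Aire and Fezf2 lie higher in mTEC and Psmb11 and Prss16 higher in cTEC without overlap, whereas Foxn1 overlaps.

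Over the whole table, 1602 of 15114 genes tested (10.6%) passed the edgeR quasi-likelihood test at a Benjamini-Hochberg adjusted p under 0.05. Of these, 1382 (9.14% of those tested) were higher and 220 (1.46%) lower in mTEC, and the median log2 fold change of all genes tested was 0.35. In 992 genes (6.56%) every mTEC library lay above every cTEC library, and in 190 (1.26%) the reverse held. Of the 1382 higher genes, 654 had no count in any cTEC library, and their median level was 19.6 CPM in mTEC and 0.0681 CPM in cTEC. The 220 lower genes had a median of 55.7 CPM in mTEC and 245 CPM in cTEC, and 1 of them was at 0 in all mTEC libraries. Of the 1382, 507 (36.7%) had a neighbouring tested gene that was called higher too, while 16.8% of all genes tested had such a neighbour. Fits without 1 library called between 776 genes (without mTEC SOD1 2) and 1972 genes (without mTEC WT 3), and without mTEC SOD1 1, mTEC SOD1 3, mTEC WT 1, mTEC WT 2, cTEC SOD1 2 or cTEC WT 3 the counts were 1039, 1030, 933, 941, 1022 and 1010. Genes given below as passing in 5 or fewer of these 12 fits were each lost without mTEC WT 2 and, apart from Xcl1, without mTEC SOD1 2. In the SOD1-G93A libraries alone, where 3 libraries stand against 3, 7 genes passed, and in the WT libraries alone 234. With the replicate block 757 genes passed (637 higher and 120 lower). Of 171 named genes and called list members, 57 lost their call in that fit.

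**Figure D2:**
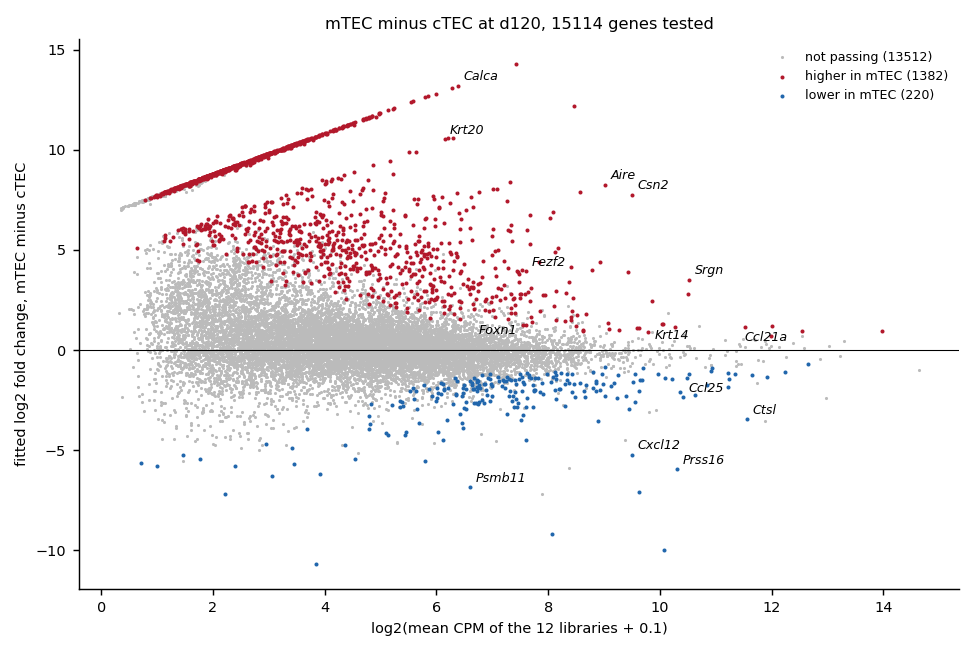
Log2 fold change of mTEC over cTEC at d120 against log2 of the mean CPM of the 12 libraries plus 0.1, 1 point per gene tested, with genes higher and lower in mTEC at an adjusted p under 0.05 in colour. Genes called higher (1382) reach large fitted fold changes, and those on the straight upper edge have no count in cTEC, so that their fitted value depends on the model's prior. The 220 genes called lower include abundant genes such as Prss16 and Ctsl.

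Genes known for peptide processing and thymocyte recruitment were among those lower in mTEC. Prss16, the thymus-specific serine protease of cTEC (chr13:22002173-22009742), had 31.6, 41.2 and 50.4 CPM in mTEC, against 1519, 2336 and 4230.2 CPM in cTEC. No mTEC library came near the lowest cTEC library, and the log2 fold change was -5.94 ± 0.34 SE, adjusted p = 3.54e-08, the smallest adjusted p of the table. Ctsl, the lysosomal protease cathepsin L that processes antigen for class II in the cortex (chr13:64359337-64370890), was at 299.8, 406 and 929 CPM in mTEC, against 4679, 5259.8 and 6746 CPM in cTEC (log2 fold change -3.45 ± 0.28 SE, adjusted p = 3.52e-06). Cxcl12, a chemokine that attracts progenitors and developing thymocytes through CXCR4 (chr6:117168535-117181367), was at 18.7, 40.6 and 65.5 CPM in mTEC, against 710.2, 1449 and 2049 CPM in cTEC (log2 fold change -5.23 ± 0.38 SE, adjusted p = 8.72e-07). Ccl25, the ligand of CCR9 on the same cells (chr8:4325210-4360020), was at 206, 429 and 877 CPM in mTEC, against 1301, 2199 and 3210.5 CPM in cTEC (log2 fold change -2.35 ± 0.33 SE, adjusted p = 0.000444). Every mTEC library held Ccl25 all the same. Tbata, the thymus, brain and testes associated gene (chr10:61171954-61188841), was likewise at 349, 567 and 642 CPM in mTEC and 1948, 2258 and 3949 CPM in cTEC (log2 fold change -2.26 ± 0.26 SE, adjusted p = 6.74e-05). None of these 5 genes lost its call without any 1 library, and none overlapped between the populations, which the naming rule requires.

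Of the list of 22 cTEC genes, 20 were tested, 11 were lower in mTEC (1.46% of all genes tested were) and 0 higher, with a median log2 fold change of -2.04 beside 0.35 for all genes tested. Beside those above, the list's lower genes were Psmb11, Pax1, a transcription factor of the pharyngeal pouch from which the thymus forms (-2.02), Krt18, a keratin of simple epithelia (-1.36), Tmem131l (-1.99), and the cytokines Il7 and Kitl, described below. The genes that did not pass include both the master regulator and the main Notch ligand of the thymic epithelium. Foxn1, the transcription factor that both populations need, was at 57.1, 115 and 197 CPM in mTEC and 52.8, 78.1 and 123 CPM in cTEC (log2 fold change 0.56 ± 0.43 SE, adjusted p = 0.559). Dll4, the Notch ligand that commits progenitors to the T lineage, was at 12.2, 17.1 and 26.2 CPM in mTEC and 0, 19.4 and 48.9 CPM in cTEC (log2 fold change -0.23 ± 0.87 SE, adjusted p = 0.946). Both genes overlapped between the populations, and a p above the threshold does not show that they are equal. The cTEC surface marker Ly75 was at 13.1, 23.2 and 121 CPM in mTEC and 0, 161 and 282 CPM in cTEC (adjusted p = 0.137). Without cTEC SOD1 3, the library that stands apart, 12 genes of the list were lower.

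Other genes lower in mTEC that met the naming rule were of lipid, iron and metal handling, clotting and interferon response. Pltp, the phospholipid transfer protein (chr2:164839518-164857711), was at 18.9, 74.2 and 148 CPM in mTEC and 744, 829 and 1176 CPM in cTEC (log2 fold change -3.56 ± 0.46 SE, adjusted p = 0.000275). Fth1, the ferritin heavy chain (chr19:9980598-9985098), was at 1159, 1341 and 1442 CPM in mTEC and 2377, 3589 and 4206 CPM in cTEC, a smaller change of -1.43 ± 0.19 SE, adjusted p = 0.000326. F3, tissue factor, which starts the extrinsic clotting cascade (chr3:121723537-121735048), was at 87.4, 188 and 365 CPM in mTEC and 687, 1378 and 1742 CPM in cTEC (log2 fold change -2.59 ± 0.35 SE, adjusted p = 0.000347). In each of these 3 genes the lowest cTEC library lay above the highest mTEC library, which the naming rule requires. The interferon-induced GTPase gene Tgtp2 (chr11:49057194-49064206) had a log2 fold change of -2.32 ± 0.31 SE, adjusted p = 0.000358. That of Mt1, the metal-binding metallothionein 1 (chr8:94179082-94180327), was -2.10 ± 0.29 SE, adjusted p = 0.000444. Pithd1 (chr4:135975460-135987264) changed by -2.52 ± 0.37 SE, adjusted p = 0.000615. The carbonyl reductase gene Cbr2 (chr11:120729489-120732114) changed by -2.28 ± 0.33 SE, adjusted p = 0.000617.

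The promoters of 4 genes lower in mTEC and of Aire and 3 genes higher in mTEC are shown as examples with and without 2 motifs. Windows were printed only where at most 10 bases lie inside the annotated gene. Each sequence is the 150 bases before the start of the gene in the RefSeq table for GRCm38.p6 (mm10), 5′ to 3′ on the strand of the gene. Capitals mark GACGC or its reverse complement GCGTC, the core of the motif known for FOXN1, or TATAAA, the TATA box.
Cxcl12, chr6:117168385-117168534, plus strand: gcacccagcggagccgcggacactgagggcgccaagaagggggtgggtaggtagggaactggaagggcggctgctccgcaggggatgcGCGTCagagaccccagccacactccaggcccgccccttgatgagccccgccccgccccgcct
Ccl25, chr8:4325060-4325209, plus strand, the first of 2 starts: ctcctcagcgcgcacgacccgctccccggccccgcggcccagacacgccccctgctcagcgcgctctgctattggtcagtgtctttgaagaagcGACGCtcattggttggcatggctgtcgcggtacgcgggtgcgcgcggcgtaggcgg
Pltp, chr2:164857709-164857858, minus strand: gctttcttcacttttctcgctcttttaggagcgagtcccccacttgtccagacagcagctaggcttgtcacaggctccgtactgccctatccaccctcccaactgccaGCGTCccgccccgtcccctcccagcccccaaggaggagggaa
Tbata, chr10:61171814-61171963, plus strand: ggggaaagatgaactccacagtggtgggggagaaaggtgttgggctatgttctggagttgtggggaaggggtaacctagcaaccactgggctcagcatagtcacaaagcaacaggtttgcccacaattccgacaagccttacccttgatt
Aire, chr10:78043611-78043760, minus strand: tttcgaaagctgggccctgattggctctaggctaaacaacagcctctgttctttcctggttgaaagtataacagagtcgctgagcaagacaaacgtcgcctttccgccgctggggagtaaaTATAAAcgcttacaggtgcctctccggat
Krt20, chr11:99438154-99438303, minus strand: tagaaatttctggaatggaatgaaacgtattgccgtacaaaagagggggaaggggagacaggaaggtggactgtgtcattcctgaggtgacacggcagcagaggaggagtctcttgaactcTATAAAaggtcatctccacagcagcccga
Calca, chr7:114636358-114636507, minus strand: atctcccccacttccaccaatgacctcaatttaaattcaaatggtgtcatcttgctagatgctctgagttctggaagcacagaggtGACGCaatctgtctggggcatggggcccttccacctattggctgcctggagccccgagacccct
Cadps, chr14:12823080-12823229, minus strand: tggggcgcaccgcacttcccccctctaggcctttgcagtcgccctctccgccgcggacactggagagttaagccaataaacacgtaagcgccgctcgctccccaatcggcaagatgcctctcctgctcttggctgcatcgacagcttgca
GACGC was found on either strand at position -62 in Cxcl12, -56 in Ccl25 and -42 in Pltp, counted back from the gene's start, and Tbata holds neither motif. Aire and Krt20 hold TATAAA at position -29, Calca holds GACGC at -64, and Cadps holds neither. The same 150 bases were searched on both strands for the 24 genes that met the naming rule and for Psmb11, Aire and Fezf2, of which Prss16 and Dsg1a had no entry. Of 12 genes lower in mTEC, 5 held GACGC, 2 TATAAA and 5 neither, and of 13 higher in mTEC, 2 held GACGC, 5 TATAAA and 6 neither. These counts include windows with more than 10 bases inside the annotated gene. Those of Psmb11, Fezf2, Pglyrp2 and Ctsl lie inside it with all 150 bases, and GACGC of Psmb11, Pithd1 and Utf1 is in such windows. TATAAA was counted at any position, as at -98 in Srgn and -124 in Fth1. Among the 11267 genes tested that had an entry, 27.5% held GACGC and 4.54% TATAAA in such a window. The motif matches do not overlap in the sequences printed, and a match describes these letters and not a binding site.

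Most of the 12 named genes higher in mTEC were at or near 0 in cTEC. Cadps, which primes dense-core vesicles for secretion (chr14:12372563-12823079), stood at 77.1, 164 and 255 CPM in mTEC, against 0, 0 and 0.533 CPM in cTEC (adjusted p = 4.99e-06). It had 1 count over all cTEC libraries, a ratio of 2487 with a counting interval of 446 to 98247. Calca, the gene of calcitonin and calcitonin gene-related peptide (chr7:114631478-114636357), stood at 129, 162 and 226 CPM in mTEC and had no count in cTEC. It was at least 706-fold higher in mTEC, with 3 counts over the 6 cTEC libraries as the floor (adjusted p = 1.96e-05). Pglyrp2, a peptidoglycan amidase made by the liver (chr17:32412459-32424167), was at 98.6, 144 and 239.8 CPM in mTEC and at 0 in cTEC, at least 806-fold higher on the same floor (adjusted p = 3.03e-05). Hal, the histidine ammonia lyase of liver and epidermis (chr10:93488768-93519304), was at 72.2, 96.6 and 181 CPM in mTEC and at 0 in cTEC, at least 583-fold higher (adjusted p = 6.74e-05). Counting intervals and floors cover counting error only.

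Apoa1, the main apolipoprotein of high-density lipoprotein (chr9:46228580-46230466), was at 29.9, 109 and 361 CPM in mTEC, with 1 count over the cTEC libraries, a ratio of 1926 with a counting interval of 346 to 76081 (adjusted p = 1.84e-05). Krt20, a keratin of intestinal epithelium (chr11:99428403-99438150), was at 58.3, 133 and 272 CPM in mTEC, with 1 count in cTEC, a ratio of 1831 with an interval of 329 to 72324 (adjusted p = 5.63e-06). Also with 1 count in cTEC were Dsg1a, a desmosomal cadherin of the epidermis, at 34.8, 98.8 and 166 CPM, Calm4, a calmodulin-like gene of the epidermis, at 29.1, 72.9 and 184 CPM, and Adgb, androglobin, at 46.1, 79.5 and 91.5 CPM in mTEC (adjusted p = 3.03e-05, 3.03e-05 and 4.21e-05). Utf1, a chromatin factor of pluripotent cells (chr7:139943789-139945112), was at 71.6, 172 and 216 CPM in mTEC, against 0, 0.204 and 1.95 CPM in cTEC (log2 fold change 7.86 ± 0.80 SE, adjusted p = 2.93e-05). The last 2 named genes were counted in most cTEC libraries. Srgn, the granule proteoglycan serglycin (chr10:62493833-62527451), was at 1325, 2882 and 3431 CPM in mTEC, against 55.2, 230.1 and 399 CPM in cTEC (log2 fold change 3.51 ± 0.38 SE, adjusted p = 5.36e-05). Fscn1, the actin-bundling protein fascin (chr5:142960343-142973185), was at 201, 315 and 429 CPM in mTEC, against 0, 4.4 and 16.8 CPM in cTEC (log2 fold change 5.95 ± 0.67 SE, adjusted p = 6.74e-05). All 12 kept their call without any 1 library, and none overlapped between the populations, which the naming rule requires. Srgn and Fscn1 are also genes of leukocytes, whose markers are given below.

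The list of 24 mTEC genes was tested in full, with 12 higher (9.14% of all genes tested were) and 0 lower in mTEC and a median log2 fold change of 2.73. Fezf2, the second regulator of tissue-restricted genes, was at 148, 379 and 471 CPM in mTEC, against 3.15, 17.9 and 84.9 CPM in cTEC, without overlap (log2 fold change 3.92 ± 0.63 SE, adjusted p = 0.00128). Tnfrsf11a, the receptor RANK, was at 75.5, 144 and 251 CPM in mTEC, against 1.43, 3.23 and 22.4 CPM in cTEC (log2 fold change 4.66 ± 0.72 SE, adjusted p = 0.000854). The decoy receptor of the same ligand, osteoprotegerin (Tnfrsf11b), was higher by 4.08 ± 0.99 SE, adjusted p = 0.0164. Spib, an ETS factor induced downstream of RANK, was higher by 4.88 ± 1.01 SE, adjusted p = 0.00662. Cd80, a costimulatory ligand that marks mature mTEC, was at 60.1, 89.5 and 170.3 CPM in mTEC, against 0, 1.3 and 14.9 CPM in cTEC (log2 fold change 4.91 ± 1.07 SE, adjusted p = 0.00909). Hdc, the enzyme that makes histamine, was at 137, 523 and 947 CPM in mTEC, against 0, 4.04 and 18.8 CPM in cTEC (log2 fold change 6.60 ± 0.95 SE, adjusted p = 0.000592), and Ccl22 was higher by 7.11 ± 1.36 SE, adjusted p = 0.00428. Calls of Cd40, Cd86 and Xcl1 were less firm, with log2 fold changes of 2.56, 5.63 and 5.01, and passed in 5, 4 and 2 of the 12 fits without 1 library (adjusted p up to 0.069, 0.0995 and 0.13).

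Genes of the less mature medulla overlapped between the populations. Krt5, a basal keratin used to mark the medulla, was at 369, 809.6 and 1718 CPM in mTEC and 406, 1374 and 2304 CPM in cTEC (log2 fold change -0.75 ± 0.40 SE, adjusted p = 0.309). Krt14, its partner keratin, was at 458, 1051 and 1510.2 CPM in mTEC and 245, 671 and 1447 CPM in cTEC (log2 fold change 0.30 ± 0.41 SE, adjusted p = 0.791). Ccl21a, the CCR7 ligand that draws selected thymocytes into the medulla, was at 1420.1, 2421 and 4708 CPM in mTEC and 828, 2925 and 4962 CPM in cTEC (log2 fold change 0.21 ± 0.37 SE, adjusted p = 0.858). In all 3 genes the ranges overlapped, and cTEC libraries reached levels like those of mTEC. Fewer cells of a type and less RNA per cell cannot be told apart in such bulk samples. Without cTEC SOD1 3 the list counted 16 higher and 1 lower.

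Among the 29 tested genes of the list of Aire partners and of promiscuous expression, 3 were higher and 2 lower (9.14% and 1.46% of all genes tested were), with a median log2 fold change of -0.01. Beside Aire and Fezf2 the higher one was Sirt1, the deacetylase that acts on Aire (log2 fold change 1.85 ± 0.48 SE, adjusted p = 0.0221), whose call was lost without mTEC SOD1 2, mTEC SOD1 3, cTEC WT 2 or cTEC WT 3 (adjusted p up to 0.0582). The lower ones were Daxx, a histone chaperone and corepressor (-2.27 ± 0.53 SE, adjusted p = 0.0137), and Top1, topoisomerase 1, which passed in 3 of 12 fits without 1 library (-1.51 ± 0.46 SE, adjusted p = 0.0441). With the replicate block 0 genes of this list were lower. Cdk9, the kinase that releases paused polymerase, had a log2 fold change of 0.95, and Prkdc, the DNA-dependent protein kinase that binds Aire, of -0.70, and neither passed (adjusted p = 0.382 and 0.849).

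Tissue-restricted antigens lay on the mTEC side. Of 62 genes, 61 were in the table and 48 tested, of which 34 were higher and 0 lower in mTEC. The median log2 fold change was 7.77, or 5.63 with genes at 0 in cTEC set at the floor of 3 counts. Genes enter the test mostly through the population in which they are counted, so these figures are over tested genes and not over the list. The pancreatic islet gave Iapp, amylin, at 42.9, 109 and 209.7 CPM in mTEC, against 0, 0 and 4.54 CPM in cTEC (log2 fold change 7.52 ± 1.06 SE, adjusted p = 0.000444). Gcg, proglucagon, was at 27, 68.5 and 147 CPM in mTEC, against 0, 0 and 7.3 CPM in cTEC (6.44 ± 1.19 SE, adjusted p = 0.00341). Ins2, an insulin gene and a classic Aire target, was at 3.64, 12.3 and 28.5 CPM in mTEC and had no count in cTEC (adjusted p = 0.00731). Sst, somatostatin, ranged more widely, at 0, 55.8 and 102 CPM in mTEC, with no count in any cTEC library (adjusted p = 0.00624).

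Genes of milk, gut, testis, brain and liver lay on the same side. Csn2, beta-casein, was at 610.3, 1449.9 and 2136 CPM in mTEC, against 0, 2.92 and 37.3 CPM in cTEC (log2 fold change 7.75 ± 1.13 SE, adjusted p = 0.000621). Apoa4, an intestinal apolipoprotein, was at 62.4, 211 and 432 CPM in mTEC, against 0, 0 and 6.4 CPM in cTEC (7.87 ± 1.20 SE, adjusted p = 0.000783). Fabp9, a testis fatty acid binding protein, was at 24.9, 50 and 110.4 CPM in mTEC and 0 in every cTEC library (adjusted p = 0.000387), and Gad1, the enzyme that makes GABA, at 25.7, 45.4 and 72.9 CPM in mTEC and 0 in every cTEC library (adjusted p = 0.000666). S100a8 and S100a9, the calprotectin genes of neutrophils and squamous epithelium, were higher by 6.99 ± 1.17 SE, adjusted p = 0.00166, and 6.69 ± 1.19 SE, adjusted p = 0.00271. Cyp1a2, a liver cytochrome, was at 7.07, 16.2 and 44.8 CPM in mTEC and 0, 0 and 0.533 CPM in cTEC (adjusted p = 0.00194). Antigens that did not pass include Ttr, transthyretin, at 0, 2.46 and 10.9 CPM in mTEC and 0, 0 and 13.6 CPM in cTEC, and Tg, thyroglobulin, at 0, 3.33 and 6.75 CPM in mTEC and 0, 0 and 10.2 CPM in cTEC (adjusted p = 0.704 and 0.953). Without mTEC SOD1 2, the deepest library, 22 antigens were higher, and without cTEC SOD1 3 29 of 49 tested. With all libraries thinned to equal depth, 33 of 40 tested were higher, and with the replicate block 23 of 48. Casein, Dcpp and Mup genes are near-identical families, and how the authors' counting split shared reads is not known.

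**Figure D3:**
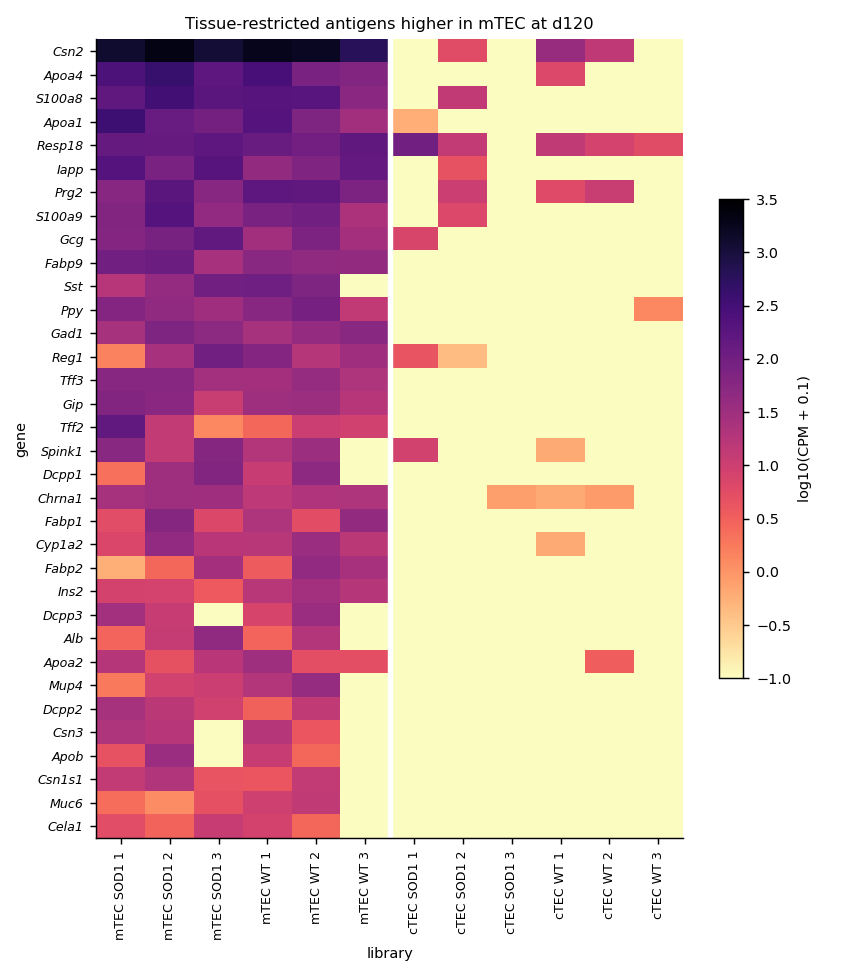
Levels of the 34 tissue-restricted antigens higher in mTEC, 1 row per gene and 1 column per library of d120, as log10 of CPM plus 0.1, with mTEC libraries left of cTEC libraries. mTEC libraries hold the antigens at varied levels (Iapp at 42.9, 109 and 209.7 CPM as lowest, median and highest), while most values of the cTEC libraries are 0.

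Genes of mimetic cells were read against the 9.14% of all genes tested that were higher. Of 14 enterohepatic genes tested, 9 were higher and 0 lower (median log2 fold change 6.43), among them Saa3, a serum amyloid gene of a near-identical family (8.39 ± 1.25 SE, adjusted p = 0.000669). Of 9 muscle genes tested of 18 listed, 6 were higher, with titin (Ttn) at 282, 527 and 1549 CPM in mTEC, against 0, 0.661 and 28.6 CPM in cTEC (7.90 ± 1.19 SE, adjusted p = 0.000696), and the acetylcholine receptor subunit Chrna1, a myasthenia antigen, at 14.9, 23.8 and 32 CPM in mTEC and 0, 0.267 and 0.788 CPM in cTEC (adjusted p = 0.00363). Without mTEC SOD1 3, 3 muscle genes were higher. Of 11 microfold cell genes, 4 were higher, which are Spib and Tnfrsf11b as above, Ccl20 (6.58 ± 1.01 SE, adjusted p = 0.000783), the CCR6 ligand that microfold cells make, and Ccl9 (6.78 ± 1.54 SE, adjusted p = 0.0112). Sox8, a transcription factor needed by intestinal microfold cells, did not pass (adjusted p = 0.371). Without cTEC SOD1 3, 1 microfold gene was lower.

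Keratinocyte genes split. Of 17 tested, 6 were higher and 1 lower, with Klk7, a protease of the cornified layer, at 28.5, 94.1 and 219 CPM in mTEC, against 0, 0 and 4.27 CPM in cTEC (7.56 ± 1.14 SE, adjusted p = 0.000734), the cornified envelope gene Sprr1a higher by 1.82 ± 0.42 SE, adjusted p = 0.0127, and filaggrin (Flg) at 8.39, 27.7 and 144 CPM in mTEC and 0, 0 and 1.43 CPM in cTEC (adjusted p = 0.00164). The lower gene was the desmocollin Dsc3 (-2.31 ± 0.64 SE, adjusted p = 0.0305), a call lost without any mTEC library of SOD1-G93A mice, mTEC WT 1, cTEC SOD1 2 or cTEC WT 3. Of 8 neuroendocrine genes tested, 3 were higher, among them Calca and the transcription factor Insm1 (6.11 ± 1.14 SE, adjusted p = 0.00363). Tuft cells gave 2 of 15 (9.14% of all genes tested were higher), Gnat3, the taste G protein gustducin (4.94 ± 1.37 SE, adjusted p = 0.03), and Ltc4s, which makes a leukotriene (3.43 ± 1.04 SE, adjusted p = 0.0441), and both calls were lost in most fits without 1 library (passing in 5 and 3 of 12). The count was 5 without cTEC SOD1 3, 1 without mTEC SOD1 1 or cTEC SOD1 1, and 0 without mTEC SOD1 2, mTEC SOD1 3, mTEC WT 1, mTEC WT 2 or any cTEC library of WT mice. It was also 0 with the replicate block. The tuft regulator Pou2f3 was at 0.409, 27.6 and 59.4 CPM in mTEC and 0, 3.5 and 22.9 CPM in cTEC (adjusted p = 0.245). Ciliated cell and ionocyte genes gave 3 of 13. Rsph1, of the ciliary radial spoke, was at 0, 9.74 and 28.8 CPM in mTEC and 0 in every cTEC library (adjusted p = 0.0228, and 0.0594 without mTEC SOD1 2), and the regulators Foxj1 and Foxi1 (4.24 and 4.75) each passed in 3 of 12 fits without 1 library. The counts of this last list ran from 0 without mTEC SOD1 2 to 4.

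**Figure D4:**
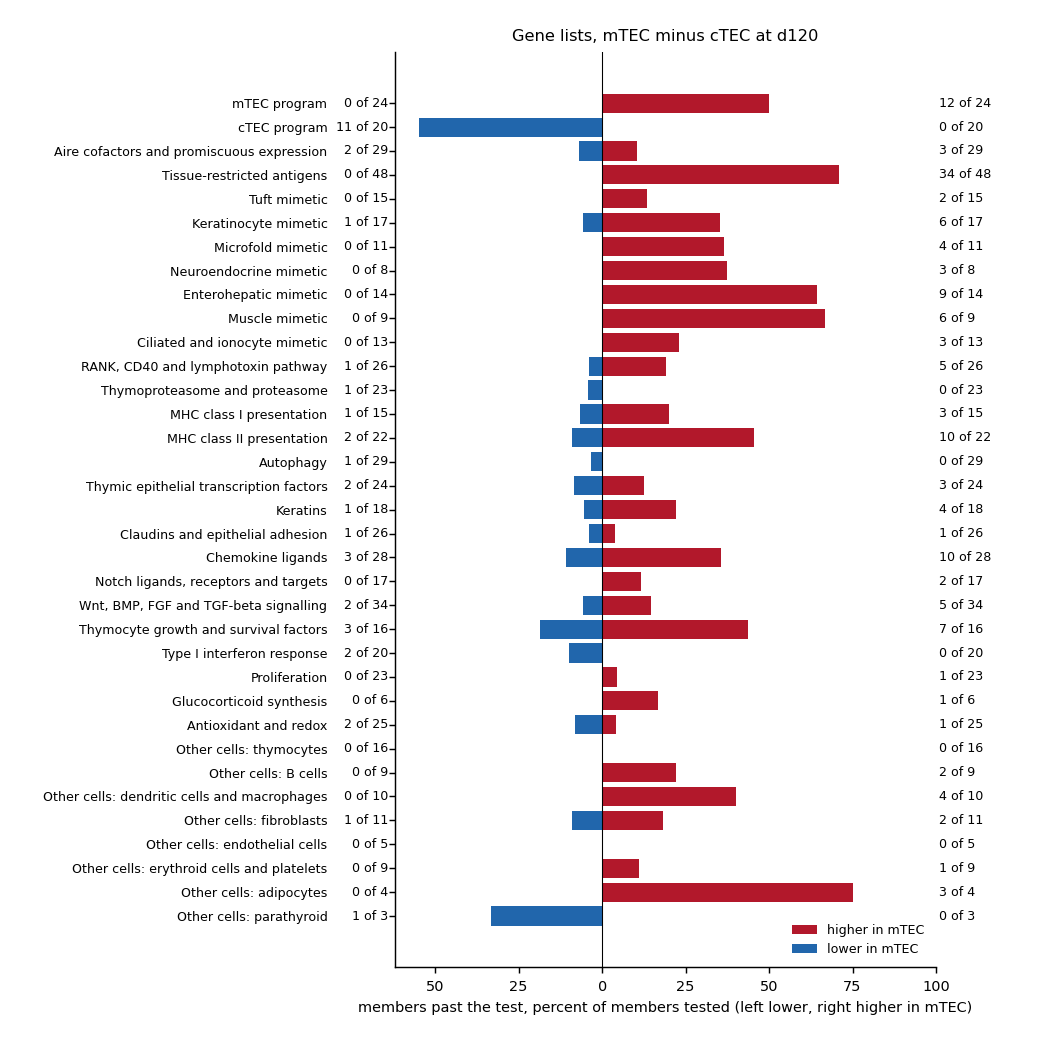
Share of the tested genes of each list that passed the test, as percent of genes tested, with genes lower in mTEC as bars to the left and genes higher in mTEC as bars to the right and the counts beside them. The longest bars toward cTEC are those of the cTEC program (11 of 20), and those toward mTEC are adipocyte markers (3 of 4), antigens (34 of 48), muscle (6 of 9) and enterohepatic genes (9 of 14). Genes enter the test mostly through the population in which they are counted. The lists held 8 adipocyte markers, 62 antigens, 18 muscle and 17 enterohepatic genes, so the bars are not shares of the lists.

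Genes of the RANK, CD40 and lymphotoxin pathway passed in both directions. Of 26 genes, 5 were higher and 1 lower (9.14% and 1.46% of all genes tested were). In 8 of the 26 every mTEC library lay above every cTEC library, and in 1 the reverse held (6.56% and 1.26% of all genes tested). Traf1, an adaptor induced by NF-kappaB, was at 115, 174 and 327 CPM in mTEC, against 0.714, 16.5 and 37.2 CPM in cTEC (log2 fold change 3.42 ± 0.65 SE, adjusted p = 0.00399), and Nfkbie, an inhibitor of the same pathway, was higher by 1.25 ± 0.36 SE, adjusted p = 0.0339. The lower gene was the TNF receptor Tnfrsf1a (-1.37 ± 0.41 SE, adjusted p = 0.0392). Both of these last calls were lost in most fits without 1 library (passing in 3 and 2 of 12). The lymphotoxin receptor Ltbr, through which the medulla is organised, was at 14.8, 30.1 and 58.3 CPM in mTEC and 39.4, 53.6 and 80.7 CPM in cTEC and did not pass (-0.82 ± 0.53 SE, adjusted p = 0.451). Relb, the subunit of the alternative pathway that mTEC need, was at 181, 285 and 314 CPM in mTEC and 91.2, 123 and 219.8 CPM in cTEC (1.02 ± 0.34 SE, adjusted p = 0.0667), and Nfkb2, its partner, at 280.4, 385 and 473 CPM in mTEC and 0, 107 and 146 CPM in cTEC (1.98 ± 0.69 SE, adjusted p = 0.0748). The count of higher genes was 9 without cTEC SOD1 3 and 3 without mTEC SOD1 1, mTEC SOD1 2, mTEC WT 1, mTEC WT 2, cTEC SOD1 1, cTEC WT 1 or cTEC WT 3.

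Genes of antigen presentation passed in the class II, the class I and the proteasome list. Of 22 class II genes, 10 were higher and 2 lower in mTEC (9.14% and 1.46% of all genes tested were). The classical chains were abundant in both populations. H2-Aa was at 2779, 5938 and 7541 CPM in mTEC and 1747, 2492 and 3446 CPM in cTEC (log2 fold change 1.18 ± 0.24 SE, adjusted p = 0.00597), and the invariant chain Cd74, which guides class II through the cell, was at 11142, 21718 and 28467 CPM in mTEC and 8650.3, 11087 and 12931 CPM in cTEC (0.95 ± 0.19 SE, adjusted p = 0.00527). H2-Eb1 and H2-Ab1 were higher by 1.14 ± 0.24 SE, adjusted p = 0.00731, and 0.97 ± 0.25 SE, adjusted p = 0.0201, the second of which was lost without mTEC SOD1 2 or mTEC WT 1 (adjusted p up to 0.0593). The proteases moved in opposite directions, with Ctsh and Ctsz higher (2.82 ± 0.58 SE, adjusted p = 0.0063, and 2.95 ± 0.71 SE, adjusted p = 0.016) and Ctsl and Prss16 lower, as given above. Ctss, cathepsin S, which trims the invariant chain, was at 114, 298 and 361 CPM in mTEC and 0, 44.3 and 82 CPM in cTEC (2.79 ± 0.83 SE, adjusted p = 0.0401), but this call and those of H2-Oa and H2-Ob, which modulate peptide loading, passed in 4 of 12 fits without 1 library. Ciita, the master regulator of class II, was at 57.1, 167 and 232 CPM in mTEC and 41.6, 68.9 and 112 CPM in cTEC and did not pass (1.16 ± 0.44 SE, adjusted p = 0.11). The count of higher genes was 5 without mTEC SOD1 2 or mTEC WT 1 and 6 without mTEC SOD1 1, mTEC SOD1 3, mTEC WT 2 or cTEC SOD1 1. The class II genes are also those of B cells, dendritic cells and macrophages, whose levels are given below.

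Of 23 proteasome genes, Psmb11 was the 1 that passed, while without cTEC SOD1 3, 2 were higher and 2 lower. The median log2 fold change of the list was -0.15. Psmb5, the constitutive subunit that it replaces, was at 36.8, 85.6 and 141 CPM in mTEC and 0, 77.3 and 97.8 CPM in cTEC (0.35 ± 0.75 SE, adjusted p = 0.892). Psmb8, the immunoproteasome counterpart, was at 239.8, 441 and 539 CPM in mTEC and 75.6, 242 and 341 CPM in cTEC (0.98 ± 0.37 SE, adjusted p = 0.106). Psmb9 was at 65.7, 184 and 228 CPM in mTEC and 228, 356 and 435 CPM in cTEC, a difference of -1.08 ± 0.36 SE, adjusted p = 0.063 that missed the threshold. Of 15 class I genes, 3 were higher and 1 lower (9.14% and 1.46% of all genes tested were). Higher were Calr, the chaperone calreticulin (1.30 ± 0.26 SE, adjusted p = 0.00527), the non-classical H2-Q7 (1.32 ± 0.32 SE, adjusted p = 0.0163) and H2-K1 (0.70 ± 0.18 SE, adjusted p = 0.0209). Irf1 was lower (-0.88 ± 0.26 SE, adjusted p = 0.0383). The H2-K1 call was lost without mTEC WT 1 or cTEC SOD1 2 (adjusted p up to 0.0524), that of Irf1 in all but 2 of 12 fits without 1 library, and reads of H2-K1 and H2-Q7 may be shared with other class I genes.

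Chemokine ligands passed in both directions. Of 28 tested, 10 were higher and 3 lower in mTEC (9.14% and 1.46% of all genes tested were). Beside Ccl22 and Ccl20, the higher ones include the CXCR2 ligand Cxcl2, at 500.04, 655 and 801 CPM in mTEC and 0, 40.3 and 75.9 CPM in cTEC (4.14 ± 0.81 SE, adjusted p = 0.00504), the CCR10 ligand Ccl27a, at 95.5, 195 and 255 CPM in mTEC and 8.58, 20.5 and 125 CPM in cTEC (2.46 ± 0.61 SE, adjusted p = 0.0172), and the B cell attractant Cxcl13, at 0, 38.1 and 76.3 CPM in mTEC and 0, 0 and 4.86 CPM in cTEC (6.0 ± 1.53 SE, adjusted p = 0.0203). Cxcl14 was at 0, 8.75 and 43.9 CPM in mTEC and 0 in every cTEC library (adjusted p = 0.0187, and 0.0632 without mTEC SOD1 2). Lower in mTEC beside Cxcl12 and Ccl25 was Cx3cl1, fractalkine, at 56.4, 72.6 and 125 CPM in mTEC and 155, 207 and 355 CPM in cTEC (-1.49 ± 0.38 SE, adjusted p = 0.0213). Its call was lost without mTEC SOD1 2, mTEC SOD1 3, mTEC WT 2, cTEC SOD1 2 or cTEC WT 3 (adjusted p up to 0.0713). Ccl19, a CCR7 ligand of the medulla, was at 192, 548 and 622 CPM in mTEC and 22.9, 69.7 and 905 CPM in cTEC and did not pass (1.73 ± 0.69 SE, adjusted p = 0.134). Without mTEC WT 3, 5 ligands were lower.

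The list of thymocyte growth and survival factors, which also holds costimulatory and checkpoint ligands, gave 7 higher and 3 lower of 16 (9.14% and 1.46% of all genes tested were). Icosl, the ligand of the costimulatory receptor ICOS, was at 154, 276 and 349 CPM in mTEC, against 0, 10.7 and 13.4 CPM in cTEC (5.0 ± 0.66 SE, adjusted p = 0.000318). Igf1, insulin-like growth factor 1, was at 183, 315 and 539 CPM in mTEC and 0, 24.3 and 56.5 CPM in cTEC (3.82 ± 0.76 SE, adjusted p = 0.00527), and Fgf21, an endocrine growth factor, at 109, 321 and 548 CPM in mTEC and 0, 3.23 and 12.6 CPM in cTEC (6.25 ± 0.87 SE, adjusted p = 0.000436). Tslp, which conditions dendritic cells, was higher by 4.63 ± 1.16 SE, adjusted p = 0.0186, a call lost without mTEC SOD1 2 (adjusted p = 0.0548). On the other side Cd274, which encodes the checkpoint ligand PD-L1, was at 162, 248 and 327 CPM in mTEC and 205, 938 and 1266 CPM in cTEC (-1.82 ± 0.35 SE, adjusted p = 0.00478). Il7, the cytokine on which early thymocytes depend, was at 51.6, 82.2 and 107 CPM in mTEC and 134, 175 and 529.6 CPM in cTEC (-1.47 ± 0.43 SE, adjusted p = 0.0388), and Kitl, stem cell factor, at 2.26, 8.15 and 13.4 CPM in mTEC and 0.714, 48.1 and 95.3 CPM in cTEC (-2.71 ± 0.84 SE, adjusted p = 0.0475). Those of Il7 and Kitl are weak calls that passed in 4 and 2 of 12 fits without 1 library. The count of higher genes was 4 without mTEC SOD1 2, and that of lower genes 1 without any mTEC library other than WT 3 or without any cTEC library of WT mice.

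In each of the remaining pathways few genes passed, and their counts stand beside 9.14% higher and 1.46% lower of all genes tested. Of 24 transcription factors of the thymic epithelium, Spib, Irf4 (4.70 ± 1.23 SE, adjusted p = 0.0226) and Elf5 (lost without mTEC SOD1 1, mTEC WT 2, cTEC SOD1 2 or any cTEC library of WT mice) were higher and Tbata and Pax1 lower, with 4 lower in the fit without cTEC SOD1 3. Irf4, an interferon regulatory factor, was at 54.3, 69.7 and 103 CPM in mTEC and 0, 0 and 18.1 CPM in cTEC. Of 18 keratins, Krt20, Krt13, Krt79 and Krt16 were higher and Krt18 lower, which was at 1664, 2109 and 2755 CPM in mTEC and 2999, 5389.6 and 8917 CPM in cTEC (-1.36 ± 0.24 SE, adjusted p = 0.00273). Krt8, its partner in simple epithelia, was at 2224, 2898 and 3403 CPM in mTEC and 2899.97, 4156 and 4971 CPM in cTEC (-0.49 ± 0.19 SE, adjusted p = 0.111). Krt16 lost its call without mTEC SOD1 2 (adjusted p = 0.0636). Of 17 Notch genes tested, Dlk1, a non-canonical ligand, and Mfng, which modifies Notch receptors with sugar, were higher, with adjusted p of 0.00129 and 0.00627. Dlk1 was at 6.14, 29.3 and 32.1 CPM in mTEC and 0, 0 and 0.714 CPM in cTEC, and Mfng at 4.98, 16.8 and 24.3 CPM in mTEC and 0 in every cTEC library. Without cTEC SOD1 3, 2 Notch genes were lower.

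Wnt, BMP, FGF and TGF-beta genes were 5 higher and 2 lower of 34 (9.14% and 1.46% of all genes tested were). The count of lower genes was 4 without cTEC SOD1 3, 0 without cTEC SOD1 2 or cTEC WT 3, and 1 without any other library but mTEC WT 3. Bmp2, a bone morphogenetic protein, was at 43.1, 85.6 and 185 CPM in mTEC and 0, 6.65 and 19.7 CPM in cTEC (3.47 ± 0.77 SE, adjusted p = 0.0097), and Wnt10a was higher by 4.89 ± 1.06 SE, adjusted p = 0.00844. Tgfbr2, the TGF-beta receptor, was lower (-2.78 ± 0.68 SE, adjusted p = 0.0165), a call lost without cTEC SOD1 2 or cTEC WT 3 (adjusted p up to 0.0683). Interferon response genes were 0 higher and 2 lower of 20, with Ifit3, an interferon-induced RNA-binding protein, at 74.3, 130.5 and 201 CPM in mTEC and 404, 594 and 1104 CPM in cTEC (-2.33 ± 0.39 SE, adjusted p = 0.00156). The 20 genes had a median log2 fold change of -0.77, beside 0.35 for all genes tested, and that of 4 of them was positive. Ifit1 (-1.20 ± 0.34 SE, adjusted p = 0.0316) passed in 3 of 12 fits without 1 library. Antioxidant genes were 1 higher and 2 lower of 25, beside the same shares of all genes tested. Sod2, the mitochondrial superoxide dismutase, was at 51.6, 99.4 and 119.6 CPM in mTEC and 206, 229 and 418 CPM in cTEC (-1.60 ± 0.37 SE, adjusted p = 0.0116), and Gpx3, the secreted glutathione peroxidase, at 325, 508 and 665 CPM in mTEC and 74.4, 183 and 274 CPM in cTEC (1.53 ± 0.35 SE, adjusted p = 0.0123). The other lower gene was Prdx6, peroxiredoxin 6 (-1.10 ± 0.34 SE, adjusted p = 0.047), which passed in 2 of 12 fits without 1 library. The count of lower genes was 4 without cTEC SOD1 3, 1 without any other library but mTEC WT 3, while 2 were higher in the fit without mTEC WT 3.

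Autophagy, which feeds cytosolic antigen into class II, gave 1 lower gene of 29, Map1lc3b (-0.85 ± 0.26 SE, adjusted p = 0.0472, passing in 2 of 12 fits without 1 library), with 3 lower in the fit without cTEC SOD1 3. Of 26 adhesion and claudin genes, 1 was higher (the junction gene Tjp3, 2.53) and 1 lower (the laminin chain Lama3, -1.88), with 3 higher in the fit without cTEC SOD1 3. Proliferation genes gave 1 of 23, the checkpoint kinase Bub1, and Mki67, the proliferation antigen Ki-67, was at 6.9, 20.5 and 47.7 CPM in mTEC and 0, 23.2 and 46.7 CPM in cTEC (0.06 ± 0.96 SE, adjusted p = 0.991). Of 6 glucocorticoid synthesis genes tested of 12 listed, Cyp11a1, the first enzyme of steroid synthesis, was higher, at 0, 14 and 35.7 CPM in mTEC and 0 in every cTEC library (adjusted p = 0.0305). These calls of Tjp3, Lama3, Bub1 and Cyp11a1 passed in 1, 3, 2 and 4 of 12 fits without 1 library.

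Markers of other cells were present in both populations. Their counts here and in the next paragraph stand beside 9.14% higher and 1.46% lower of all genes tested. The summed level of 16 dendritic cell and macrophage markers was 96.2, 756 and 1173 CPM in mTEC, against 0.714, 54.7 and 133 CPM in cTEC, and 4 of 10 tested were higher in mTEC (Lyz2 4.91, C1qb 5.5, Adgre1 and C1qc). C1qc passed in 1 of 12 fits without 1 library, and C1qb was lost without mTEC SOD1 2. Adgre1, the macrophage antigen F4/80, was at 0, 10.8 and 47.5 CPM in mTEC and passed in 11 of 12 fits without 1 library, lost without mTEC SOD1 2 (adjusted p = 0.0648). Clec9a, Adgre1, C1qc and Fcgr1 had no count in any cTEC library, and each of the 16 was counted in mTEC. Without mTEC SOD1 2, 1 of these markers was higher. Srgn, Fscn1, Cd80, Cd86, Ccl22 and 10 of 22 class II genes were higher in mTEC too. The part of these markers in those differences was not tested. The 10 B cell markers summed to 54.8, 107 and 194 CPM in mTEC and 8.18, 22.6 and 76.2 CPM in cTEC, and 2 of 9 tested, Cr2 and Blk, were higher. The call of Blk was lost without mTEC SOD1 2, mTEC WT 1 or mTEC WT 2 (adjusted p up to 0.064). Blk, Cd22, Pax5 and Cr2 had no count in any cTEC library. The 18 thymocyte markers summed to 93.9, 169 and 318 CPM in mTEC and 215, 375 and 554 CPM in cTEC, with 0 of 16 tested passing in either direction and each of the 18 counted in both populations, while 1 was lower without cTEC SOD1 3. Genes of plasma cells were looked at after their values were seen. The heavy chain gene Ighg2c was at 0, 1.93 and 4.71 CPM in mTEC and 0.486, 1341 and 5623 CPM in cTEC and was lower in mTEC (log2 fold change -10.00 ± 1.84 SE, adjusted p = 0.00325), a call lost without cTEC WT 2 (adjusted p = 0.0519). With the replicate block the call of Ighg2c was lost too (adjusted p = 0.0866). The light chain gene Igkc was at 130.3, 1640.1 and 9681 CPM in mTEC and 11.4, 13741 and 29469 CPM in cTEC (-2.41 ± 1.29 SE, adjusted p = 0.314), and the joining chain gene Jchain at 0, 57.1 and 1012 CPM in mTEC and 0, 1473 and 3148 CPM in cTEC (-3.07 ± 1.75 SE, adjusted p = 0.361). Reads of immunoglobulin constant genes may be shared between near-identical copies.

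Fibroblast markers summed to 234, 299 and 517 CPM in mTEC and 242, 384 and 571 CPM in cTEC, with 2 higher and 1 lower of 11. Mfap5, a microfibril gene, was at 0, 12.5 and 31.3 CPM in mTEC and 0 in every cTEC library, and Dcn, decorin, was lower (-2.08 ± 0.53 SE, adjusted p = 0.0209), a call lost without mTEC SOD1 1, mTEC SOD1 2, mTEC SOD1 3 or cTEC WT 1 (adjusted p up to 0.0748). Endothelial markers summed to 17.8, 123 and 158 CPM in mTEC and 5.33, 15.6 and 118 CPM in cTEC, with 0 of 5 passing. Erythroid and platelet markers summed to 63.1, 89 and 119 CPM in mTEC and 0.973, 13.7 and 118 CPM in cTEC, and Hba-a1, an alpha-globin of a near-identical pair, was higher (6.73 ± 1.29 SE, adjusted p = 0.00436), with 2 of the list higher without cTEC SOD1 3 and 3 without mTEC WT 3. Adipocyte markers summed to 413, 491 and 1134 CPM in mTEC and 0, 14.3 and 105 CPM in cTEC. Of 8 listed, 4 were tested and 3 higher, led by the fatty acid binding gene Fabp4 (5.12 ± 1.06 SE, adjusted p = 0.00686). Without mTEC SOD1 1, mTEC SOD1 2, mTEC WT 1, mTEC WT 2, cTEC SOD1 1 or cTEC SOD1 2, 1 was higher. The replicate block also left 1 higher. Parathyroid hormone (Pth) was at 0, 9.8 and 29 CPM in mTEC and 0, 199 and 6791 CPM in cTEC. It was lower in mTEC (adjusted p = 0.0262), a call lost without mTEC SOD1 2, mTEC SOD1 3, mTEC WT 1, mTEC WT 2, cTEC SOD1 3 or cTEC WT 1 (adjusted p up to 0.564). With the replicate block the call of Pth was lost too (adjusted p = 0.207). Gcm2, the transcription factor that makes the parathyroid, had no count in any cTEC library. The part of these cells in the differences of the epithelial lists was not tested.

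No gene passed the test of whether genotype changed the difference between the populations. The interaction, which is the mTEC minus cTEC difference of SOD1-G93A mice minus that of WT mice, was called in 0 of 15114 genes (0%) by edgeR, with 478 at an unadjusted p under 0.05. DESeq2 called 36 and limma voom 0 genes. Aire had an interaction of 1.33 ± 1.77 SE, Psmb11 of 3.63 ± 1.57 SE and Prss16 of 0.26 ± 0.57 SE on the log2 scale. A p above the threshold does not show that the populations differ alike in both genotypes.

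The difference between the populations was then set against that of d30, where 11 libraries (6 mTEC and 5 cTEC) carry the same population labels. In 1 fit of both days (23 libraries), 3222 of 20223 genes (15.9%) were higher and 627 (3.10%) lower in mTEC at d30. The same fit called 4246 genes higher and 664 lower at d120. These counts are not on the footing of the fit of d120 alone given above. The difference itself changed with day in 149 genes (0.737%), of which 128 were more toward mTEC at d120 and 21 more toward cTEC. Neither Aire nor Psmb11 passed this test. Aire had a day interaction of 2.03 (adjusted p = 0.48), Psmb11 of -0.96 (0.809) and Prss16 of 0.26 (0.975) on the log2 scale. Of the 149 genes, 77 had a difference toward cTEC at d30 and toward mTEC at d120. Without cTEC SOD1 3 of d120 and mTEC SOD1 1 of d30, which had 15135 counts, 254 genes were called, and fits without 1 library called 32 (without cTEC WT 2 of d30) to 307 genes (without mTEC WT 3 of d120). The count was 305 and 269 without cTEC SOD1 2 or cTEC SOD1 3 of d120, and 70 to 98 without mTEC SOD1 2, mTEC SOD1 3, any mTEC library of WT mice, cTEC SOD1 1 or cTEC SOD1 2 of d30. The 23 libraries of both days were scaled together for this comparison, so levels differ slightly from those above.

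Several genes known from mature dendritic cells were among those with the smallest adjusted p. Ccr7, the receptor with which mature dendritic cells and thymocytes find the medulla, was at 223, 275 and 578 CPM in mTEC of d120 and 0, 2.99 and 20.3 CPM in cTEC of d120, against 65.8, 97.3 and 169 CPM in mTEC of d30 and 154, 638 and 1591 CPM in cTEC of d30 (log2 interaction 9.08 ± 0.96 SE, adjusted p = 1.15e-05). Ccl22 was at 2.27, 143 and 288 CPM in mTEC of d120 and 0, 0 and 8.2 CPM in cTEC of d120, against 132, 178 and 213 CPM in mTEC of d30 and 137, 598 and 1708 CPM in cTEC of d30 (adjusted p = 0.000607). In both genes the cTEC libraries of d30 held levels like or above those of mTEC, and the cTEC libraries of d120 were near 0. Fscn1 was at 224, 341 and 472 CPM in mTEC of d120 and 0, 4.72 and 17.7 CPM in cTEC of d120, against 65.8, 166 and 307 CPM in mTEC of d30 and 60, 284 and 791 CPM in cTEC of d30 (6.98 ± 0.82 SE, adjusted p = 6.11e-05). Epsti1, an interferon-responsive gene, was at 35.6, 44.6 and 58.2 CPM in mTEC of d120 and at 0 in all 6 cTEC libraries of d120, against 0, 53.4 and 68.2 CPM in mTEC of d30 and 32.5, 198 and 570.2 CPM in cTEC of d30 (adjusted p = 1.15e-05). For Ccr7, Ccl22, Fscn1 and Epsti1 the lowest mTEC value of d30 was that of mTEC SOD1 1, which had 15135 counts. The other mTEC libraries of d30 held Epsti1 at 45.4 to 68.2 CPM. The other leading genes were Il1b, the inflammatory cytokine interleukin 1 beta, Samsn1 and Tagap, 2 lymphocyte signalling genes, and Pglyrp2 (adjusted p = 0.000546, 0.000607, 0.000977 and 0.000977). All 8 genes kept their call in 23 of 23 fits without 1 library.

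Summed levels of dendritic cell and macrophage markers and of thymocyte markers are given here for both days. Dendritic cell and macrophage markers summed to 107, 819.8 and 1257 CPM in mTEC of d120 and 0.633, 57.7 and 142 CPM in cTEC of d120, against 230.4, 564 and 689 CPM in mTEC of d30 and 126, 286 and 1025 CPM in cTEC of d30. Thymocyte markers summed to 104, 186 and 341 CPM in mTEC of d120 and 191, 398 and 613 CPM in cTEC of d120, against 289, 359.9 and 462 CPM in mTEC of d30 and 2308, 2666 and 3439 CPM in cTEC of d30. Their part in the day interactions was not tested, and age cannot be told apart from any difference in sorting or library preparation between the 2 days. More toward cTEC at d120 were Wfdc18, Lcn2, the iron-scavenging lipocalin 2, Gstm1, a glutathione transferase, Arid5b, Tcim and Cald1, the actin-binding caldesmon, with log2 interactions of -3.95, -3.04, -3.47, -2.53, -2.85 and -3.23 (adjusted p up to 0.0167), and the mitochondrial transcripts mt-Rnr2 (-2.38) and mt-Atp8 (-2.22). The calls of Lcn2, Gstm1, Arid5b, mt-Atp8 and Cald1 were lost without cTEC WT 2 of d30, and that of Cald1 also without mTEC SOD1 2 or cTEC WT 3 of d30 (adjusted p up to 0.110). Lcn2 was at 25.8, 39.4 and 82.1 CPM in mTEC of d120 and 69.5, 241 and 584 CPM in cTEC of d120, against 0, 45.8 and 64.4 CPM in mTEC of d30 and 16.4, 20.9 and 43.8 CPM in cTEC of d30. The 0 was that of mTEC SOD1 1 of d30, which had 15135 counts, and the other mTEC libraries of d30 held 42.0 to 64.4 CPM.

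**Figure D5:**
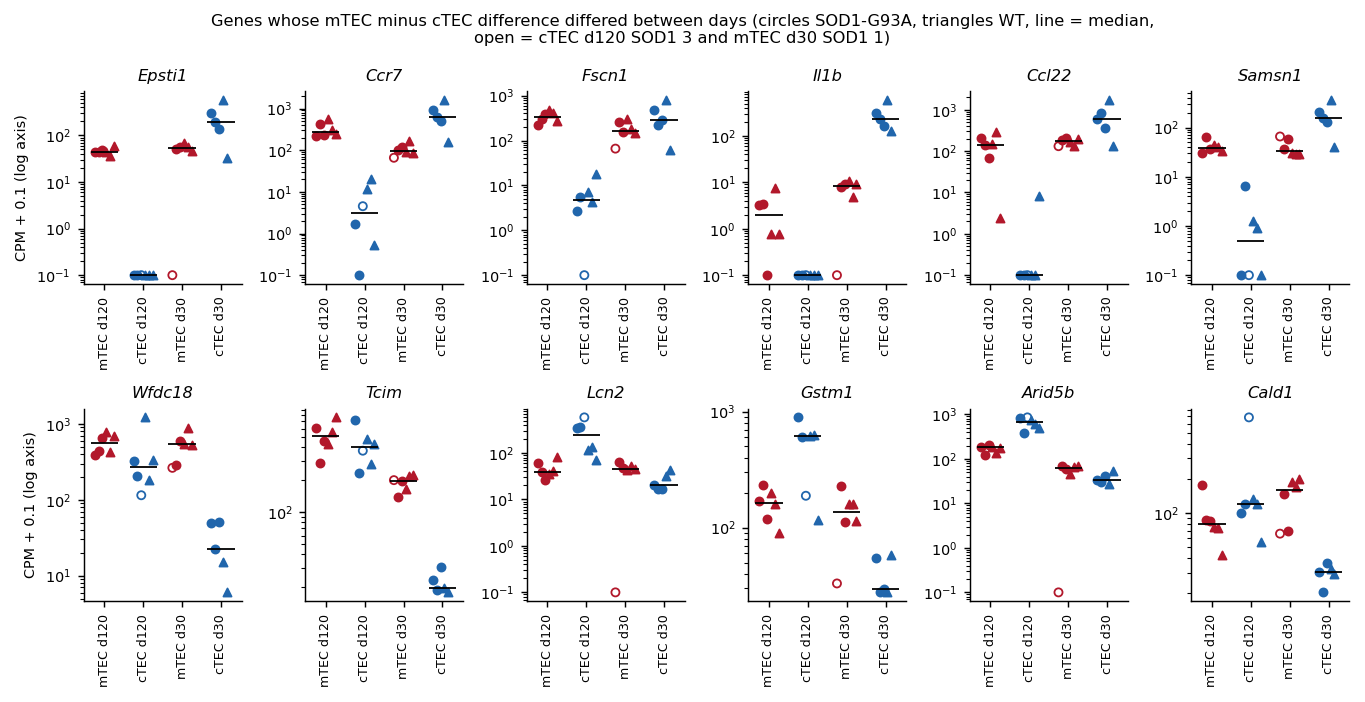
Levels of 12 genes with a day interaction, in CPM plus 0.1 on a log axis, 1 point per library, in mTEC and cTEC of d120 and of d30, with SOD1-G93A as circles, WT as triangles, the median as a line and cTEC SOD1 3 of d120 and mTEC SOD1 1 of d30 as open symbols. In the upper row every cTEC library of d120 lies below every cTEC library of d30 (Epsti1 at 0 in all 6 of d120), and in the lower row every cTEC library of d120 lies above every cTEC library of d30.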

How the data were processed

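The 12 mTEC and cTEC libraries of d120, 3 for each population and genotype, were taken from 1 table of raw read counts per gene that the authors deposited. The submitters' processing notes name the build mm10 and DESeq2, while aligner, counter and strand setting were not given in the sources used here. Of 55487 gene IDs, 55394 were matched to GENCODE vM21 for names and coordinates. Genes were filtered by group with filterByExpr, which left 15114, scaled by TMM and tested with edgeR 4.0.16 (R 4.3.3) by its quasi-likelihood test with trended dispersion and genotype as covariate, with Benjamini-Hochberg adjustment over all genes tested and calls at an adjusted p under 0.05. Standard errors are the absolute log2 fold change divided by the square root of F. The genotype interaction used the same 12 libraries and the day interaction 23 libraries of d30 and d120. CPM values were computed here, with no pseudocount other than 0.1 CPM in plots. A gene at 0 in a group was given a floor of 3 counts over the 6 libraries, and counting intervals are exact at 95%.

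Genes were named by a rule, which takes 12 per direction by adjusted p among those with a mean of at least 5 CPM and no overlap between the populations, leaving out predicted genes and receptor segments, and members of 35 gene lists (652 entries, 650 of them in the table). The members, lists and named genes were chosen with earlier results of these data known, so counts over a list describe it and are not independent evidence. The fits were tested on simulated data. DESeq2 1.42.0, limma 3.58.1 voom, other scalings, dispersions and filters, a replicate block, subsets of libraries and each library left out served as alternatives. Promoters came from a RefSeq table (GRCm38.p6) that held 74.5% of the tested genes by symbol, under the 80% that a check over all called genes needs. Motif counts are therefore given for the named genes, beside the shares over the tested genes with an entry. Values of some listed genes are not reported here.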

Additional observations from a re-analysis of the deposited data

Results flagged for a closer look

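The mTEC minus cTEC difference differed between d120 and d30 in 149 genes by an edgeR test of the interaction itself, over 23 libraries. The interactions below are the d120 difference minus the d30 difference on the log2 scale, and the 16 genes named are the 8 with the smallest adjusted p in each direction. More toward mTEC at d120 were Epsti1 (13.77), Ccr7 (9.08), Fscn1 (6.98), Il1b (12.54), Ccl22 (11.41), Samsn1 (7.35), Tagap (10.80) and Pglyrp2 (9.57). Epsti1, Il1b, Tagap and Pglyrp2 had no count in cTEC of d120, so the size of their fitted interaction depends on the prior count of the model. More toward cTEC at d120 were mt-Rnr2 (-2.38), Wfdc18 (-3.95), Tcim (-2.85), Lcn2 (-3.04), Gstm1 (-3.47), Arid5b (-2.53), mt-Atp8 (-2.22) and Cald1 (-3.23).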

How the results depend on the processing

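Of the 1602 genes called between mTEC and cTEC (1382 higher and 220 lower), the count stayed within 1.5 times with median-of-ratios scaling (1662), with another dispersion (2105 shared over genes and 2193 per gene), with no filter on low counts (1835), without cTEC SOD1 3 (1754), without the genotype covariate (1918), in library numbers 1 to 3 alone (1387), and thinned to equal depth (1493), an alternative added after seeing the data. DESeq2 called 2962 genes (2545 higher, 417 lower), limma voom 3662 (2863 and 799) and a fit of all 23 libraries of both days 4910 (4246 and 664). Fewer genes were called in SOD1-G93A libraries alone (7, with 4 higher and 3 lower), in WT libraries alone (234, with 185 and 49) and in library numbers 4 to 6 alone (257, with 192 and 65), each with fewer libraries. The lower genes were 441 with 1 shared dispersion and 368 without cTEC SOD1 3. Without 1 library the calls ranged from 776 to 1972 (674 to 1720 higher and 102 to 368 lower). Same-numbered libraries of the 2 populations correlated best with each other in 6 of 6 pairs, but at 0.0220 to 0.0658, under the 0.1 set for pairing. With a replicate block by that number 757 genes were called (637 higher and 120 lower), 730 of them among the 1602. Among the lists with fewer calls there, 1 ciliated and ionocyte gene, 2 dendritic cell and macrophage markers and 1 B cell marker were higher. Lower were 1 gene of the growth and survival list and 0 genes of the Wnt, autophagy, RANK and keratinocyte lists. Counts rose to 4 higher class I genes, 2 lower keratins and 1 higher endothelial marker. The cause of these shifts beyond the number of libraries was not tested.

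Over the named genes and called list members (171 genes), 3603 of 4550 values under an alternative kept direction and side of the threshold, 946 kept direction only, and 1 reversed, which was Pth at 2.11 (adjusted p = 0.725) in library numbers 4 to 6 alone. The genotype interaction, 0 by edgeR, was 36 by DESeq2, 2 with dispersion per gene, 31 with no filter and 0 in every fit without 1 library. The day interaction (149, with 128 more toward mTEC and 21 more toward cTEC at d120) was 523 by DESeq2 (347 and 176), 589 by limma voom (283 and 306), 452 with no filter (339 and 113), 45 with the replicate block (32 and 13) and 254 without both low libraries (80 more toward cTEC), while median-of-ratios scaling gave 36 more toward cTEC. Without 1 library it ranged from 32 to 307 (27 to 268 and 5 to 83). Depth limits the low genes, since 3 counts over 6 libraries equal 0.0415 CPM in mTEC and 0.247 CPM in cTEC.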
